A study of Mus musculus with 8 samples.

Results

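The microRNA miR-21a was followed through 8 small RNA libraries of mouse bone marrow-derived macrophages (BMDMs), as its mature arms mmu-miR-21a-5p and mmu-miR-21a-3p. Both arms were taken by name among features of type miRNA, and both were listed in the tables of both sequencing runs, which makes them 2 of 3514 features and 2 of 1515 of type miRNA. They were chosen because the 5p arm was the most abundant feature in these data, so its high level is a description and not a finding. All cells were from C57BL/6J mice, 10-week-old males in the study's methods, and had been grown into macrophages in medium with L929-cell supernatant, which supplies M-CSF (macrophage colony-stimulating factor). Control cells kept M-CSF for 36 h and the other cells were deprived of it for the same time, which is a trigger of apoptosis in these cells. The Ion Proton run had 2 control and 2 M-CSF withdrawal libraries. The SOLiD run had 4 libraries without replicates, a control and an M-CSF withdrawal library made from total RNA and another such pair made from a gel slice of 25 to 40 nt. No genotype or other agent separated the groups, and the number of mice behind each library is not given in the sources used here.

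A miRNA gene is transcribed as a long precursor, trimmed to a hairpin by Drosha and cut by Dicer into a duplex with a 5p and a 3p strand. An Argonaute protein keeps mainly one strand as the guide, which finds target mRNAs by its seed near the 5′ end, while the other strand is mostly degraded. miR-21 is abundant in macrophages and in many tumours, its known targets include Pdcd4, an inhibitor of translation, and its transcription is driven by AP-1 and STAT3.

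The mature sequences are shown because the arms, and copies of the 5p arm at other loci, have to be told apart by their letters. They are those of the deposited Ion Proton table, are identical to the RefSeq entries (GRCm38.p6), and have the seed (bases 2 to 8) in capitals.

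mmu-miR-21a-5p: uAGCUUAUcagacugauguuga

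mmu-miR-21a-3p: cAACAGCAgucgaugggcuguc

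mmu-miR-21c: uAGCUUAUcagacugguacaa

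mmu-miR-21b: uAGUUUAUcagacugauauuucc

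Both miR-21a arms are 22 nt long. In the mm10 (GRCm38) coordinates of the Ion Proton table the 5p arm lies on the minus strand at chr11:86584120-86584141 and the 3p arm at chr11:86584082-86584103. The SOLiD table lists each interval 1 base wider on each side. GENCODE release M21 places the 92-base Mir21a hairpin (chr11:86584067-86584158) inside the 3′ UTR of Vmp1, in the last of 12 exons of its annotated transcript there and on the same strand. Vmp1 encodes a membrane protein of autophagy. The 5p seed is shared by 1 other listed miRNA, miR-21c (chr8:128278188-128278208, minus strand), which has the same first 15 bases and then the substitutions A16G, G18A, U19C, U20A and G21A, counted from the 5′ end of miR-21a-5p. miR-21b (chr3:29636768-29636790, plus strand, within the gene Egfem1 but in none of its annotated exons) differs within the seed by C4U, and beyond it by G18A, G21U and A22C. No other listed miRNA has the seed of the 3p arm. Reads cut short before base 16 cannot be told apart between miR-21a-5p and miR-21c.

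Depth, as reads on listed features, ranged from 6053130 to 7760142 over the Ion Proton libraries. For SOLiD total RNA it was 5772453 (control) and 12178454 (withdrawal), and for size-selected RNA 8910972 and 4039837. Levels are given per 1000000 of these reads, named CPM in the Ion Proton run and RPM in the SOLiD run. The blood cell and myeloid markers (miR-142a-3p, miR-142a-5p and miR-223-3p) summed to 1077 and 1119 CPM in the Ion Proton controls and 802 and 805 CPM after withdrawal, without overlap, and to 11725 and 4473 RPM in the control and withdrawal libraries of SOLiD total RNA and 9577 and 10355 RPM in the size-selected ones. In the Ion Proton run, the markers of other cell types were low. The 4 stromal markers summed to 23.3 and 23.0 CPM in controls and 12.7 and 17.5 CPM after withdrawal, and the 2 epithelial markers to 7.35 and 7.94 and then 5.52 and 5.62 CPM, both without overlap of the groups. In that run both withdrawal libraries lay below both controls for 28.0% of the 2029 features tested and 40.2% of the 600 mature miRNAs among them. The 2 erythroid markers were at 6.57 and 3.06 CPM in controls and 6.75 and 8.26 CPM after withdrawal. These groups nearly met, at 6.57 and 6.75 CPM, and the share of features higher in both withdrawal libraries is not given here. The 1 lymphoid marker was at 0 to 1.81 CPM with overlap. The liver marker reached 0.165 CPM there, and those of endothelium, skeletal muscle and neurons had no reads. In the SOLiD libraries the same lists were higher, at 2395 to 3991 RPM for erythroid, 125 to 172 for stromal, 793 to 1152 for epithelial, 407 to 601 for lymphoid, 224 to 421 for muscle, 52.7 to 89.6 for liver and 23.0 to 30.8 for endothelial markers, while the neuronal miR-124-3p was listed in neither table. RNA integrity numbers were 8.4 to 8.9 in the Ion Proton run, 8.4 (control) and 7.5 (M-CSF withdrawal) for SOLiD total RNA, and 2.7 and 2.6 for the size-selected RNA. The part of other cells and of RNA quality in the results that follow was not tested.

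miR-21a-5p, the guide strand, was counted at 58154 and 63063 CPM in the Ion Proton controls and at 42646 and 49331 CPM after M-CSF withdrawal. The SOLiD libraries of total RNA had 359445 RPM in the control and 131368 RPM after withdrawal. In size-selected RNA the same pair was 180200 and 61224 RPM, although 22 nt is shorter than the selected 25 to 40 nt. In each kind of library the withdrawal value was the lower one, and the Ion Proton groups did not overlap. From the highest to the lowest, the order was SOLiD total RNA control, size-selected control, SOLiD total RNA withdrawal, and then the size-selected withdrawal library, whose value lay between the values of both Ion Proton controls, with the Ion Proton withdrawal libraries last. The counting error of a single library was small at this depth, for example 57990 to 58319 CPM (exact 95% interval) for Ion Proton control replicate 1, and such intervals leave out all variation between cultures.

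The 5p arm ranked first among all listed features in 7 of the 8 libraries. In the exception, the size-selected withdrawal library, it ranked 3rd, after miR-221-3p at 79823 RPM and a tRNA feature. The next feature in the Ion Proton run was let-7a-5p, at 38968 and 38543 CPM in controls and 31345 and 30744 CPM after withdrawal, so that miR-21a-5p was 1.36 to 1.64 times its next neighbour there. For SOLiD total RNA the next feature was miR-22-3p, and the factor was 3.22 in the control and 1.27 after withdrawal.

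miR-21a-3p, the other strand of the duplex, was counted at 530 and 566 CPM in the Ion Proton controls and at 435 and 449 CPM after withdrawal. With SOLiD it stood at 8.66 RPM in the total RNA control and 2.87 RPM after withdrawal, and in size-selected RNA at 4.49 and 5.45 RPM. The SOLiD values rest on only 50, 35, 40 and 22 reads, while the Ion Proton values rest on 2719 to 4109 reads. The exact 95% intervals of the SOLiD total RNA libraries, 6.43 to 11.4 and 2.00 to 4.00 RPM, did not overlap, and those of the size-selected libraries, 3.21 to 6.11 and 3.41 to 8.24 RPM, did. Among features of type miRNA, the 3p arm ranked from 50 to 53 in the Ion Proton run and from 340 to 427 in the SOLiD libraries.

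**Figure D1:**
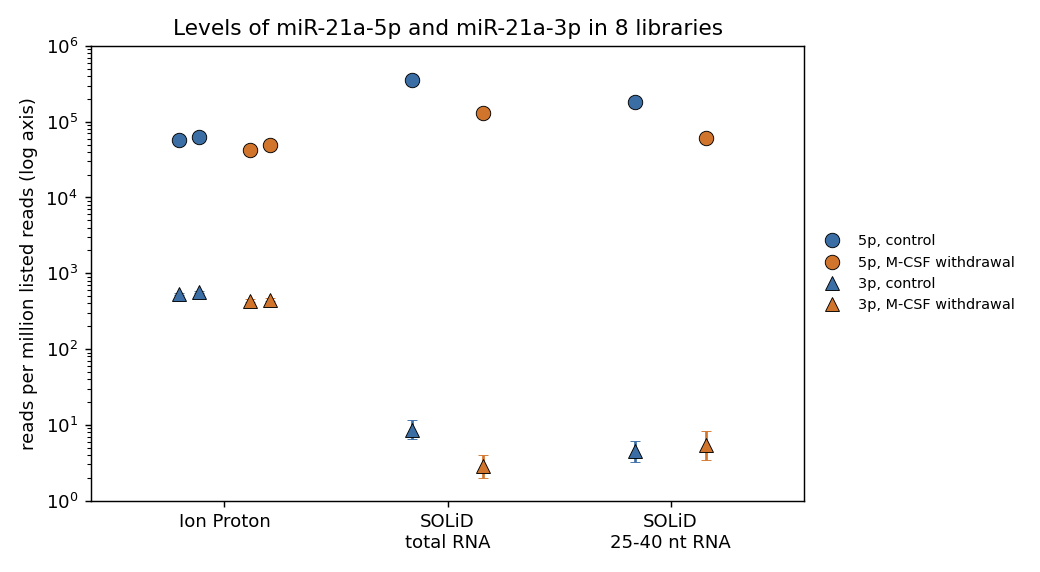
Reads per 1000000 listed reads (log axis) of miR-21a-5p (circles) and miR-21a-3p (triangles) in the 8 libraries, control in blue and M-CSF withdrawal in orange; bars are exact 95% counting intervals, hidden by the symbol where short. The 5p arm is lower after withdrawal in each kind of library, and the 3p arm lies at 435 to 566 CPM in the Ion Proton run and at 2.87 to 8.66 RPM in the SOLiD libraries.

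The question of the study was which small RNAs change when macrophages are driven into apoptosis. In the Ion Proton run miR-21a-5p averaged 60609 ± 3471 CPM in controls and 45989 ± 4727 CPM after withdrawal (SD, n = 2 each), and miR-21a-3p averaged 548 ± 25.6 and 442 ± 9.80 CPM. Both arms had both withdrawal values below both control values, as had 28.0% of the 2029 features tested and 40.2% of the 600 mature miRNAs among them. By edgeR's quasi-likelihood test, with p-values adjusted after Benjamini and Hochberg, the 5p arm had a log2 fold change of -0.34 ± 0.10 (SE), which is 1.27-fold lower (adjusted p = 0.0813). The 3p arm had a log2 fold change of -0.26 ± 0.08 (SE, edgeR adjusted p = 0.0945). So 0 of the 2 arms passed the threshold of 0.05 after adjustment, where 24.6% of all features did, and both arms were under 0.05 before it. Of the 600 mature miRNAs 13.3% passed as lower. Only 186 of the 600 averaged at least 10 CPM, as both arms did, so 13.3% is not a share among miRNAs of like level. With DESeq2 both passed, at -0.47 (adjusted p = 0.00103) for the 5p and -0.38 (adjusted p = 0.0177) for the 3p arm. With edgeR scaled to the counted totals the 5p arm passed (-0.40, adjusted p = 0.0451), and without a minimum count it did so too (adjusted p = 0.0347). The 5p call also depended on single libraries, since its adjusted p in edgeR was 0.0352 without control replicate 1 and 0.0227 without withdrawal replicate 2. The 3p arm passed without control replicate 1 (edgeR adjusted p = 0.0399). The summed blood cell and myeloid, stromal and epithelial markers were lower after withdrawal in the same Ion Proton libraries. The erythroid markers were low and went the other way, with control and withdrawal values that nearly met. The part of these markers in the result was not tested. Levels are shares of the listed reads. In bulk RNA, fewer cells that hold the miRNA, less of it per cell and more reads from other RNAs cannot be told apart.

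Reads of miRNAs as a class were lower after withdrawal as well. Reads on miRNA features made up 40.4% and 41.6% of the Ion Proton control libraries and 29.99% and 30.33% of the withdrawal libraries. Among the 186 mature miRNAs with a mean of at least 10 CPM, 150 had a log2 fold change below 0 and the median was -0.37. The 5p arm lay 0.02 above this median, with 100 of the 186 at a more negative value, and the 3p arm 0.11 above it, with 126 more negative. The other 646 features at that level, which are not miRNAs, had a median of +0.27. When the Ion Proton libraries were scaled to miRNA features only, the 5p arm had a log2 fold change of -0.03 (edgeR adjusted p = 0.827) and the 3p arm turned to +0.06 (edgeR adjusted p = 0.649). That scaling moved the median of all features from 0.08 to 0.39, and DESeq2's moved it to -0.04.

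**Figure D2:**
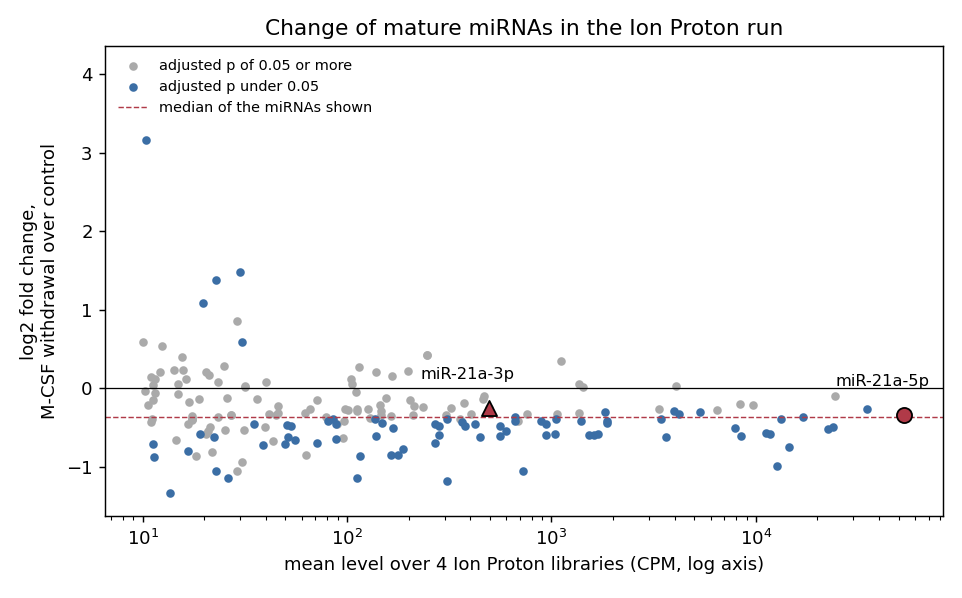
Log2 fold change after M-CSF withdrawal (edgeR) against the mean level over 4 Ion Proton libraries (CPM, log axis) for the 186 mature miRNAs with a mean of at least 10 CPM; blue points passed an adjusted p of 0.05. Both miR-21a arms lie close to the dashed median of -0.37, the 5p arm at the far right of the axis.

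The share of miRNA reads that went to miR-21a-5p was then compared. In the Ion Proton run it took 14.4% and 15.2% of miRNA reads in controls, and 14.2% and 16.3% after withdrawal. The groups overlapped, with means of 14.8% ± 0.539 and 15.2% ± 1.44 (SD, n = 2 each, exact two-sided permutation p = 1), in a design whose smallest possible p is 0.33. In the SOLiD libraries its share was larger and differed more, at 43.8% and 31.8% in total RNA and 20.6% and 13.6% in size-selected RNA for control and withdrawal. The 5p share of miRNA reads was thus lower after withdrawal in both SOLiD pairs, which have 1 library a condition and no test, while the Ion Proton groups overlapped.

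**Figure D3:**
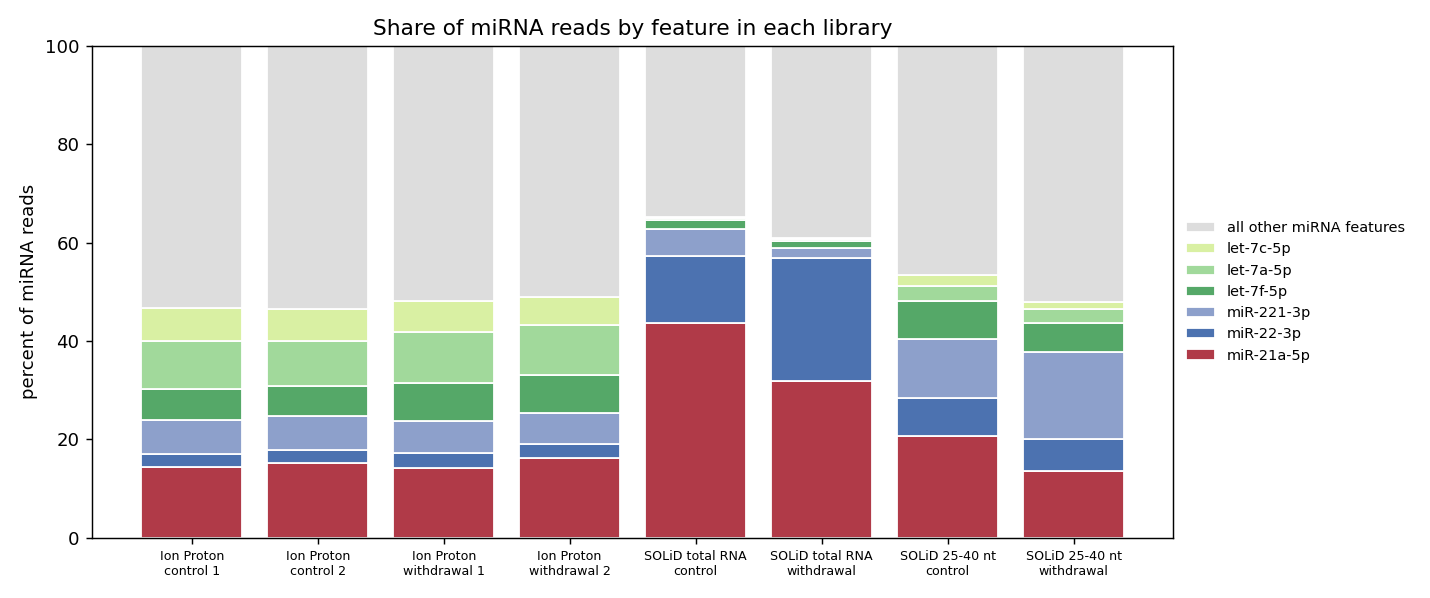
Percent of miRNA reads taken by miR-21a-5p and by the 5 other miRNA features with the highest mean level, in each of the 8 libraries. miR-21a-5p (red, lowest part of each bar) takes 14.2% to 16.3% in the 4 Ion Proton libraries and 13.6% to 43.8% in the SOLiD libraries.

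The difference in miRNA reads was also split into miR-21a-5p and the rest. Over the Ion Proton groups, miRNA reads went from 41.0% to 30.2% of all listed reads, and miR-21a-5p made up 13.5% of that difference. For SOLiD total RNA the change was from 82.2% to 41.3%, and miR-21a-5p alone made up 55.8% of it. In size-selected RNA it was from 87.4% to 45.1%, with 28.2% of the difference in miR-21a-5p. The level of miR-21a-5p after withdrawal was 0.759 of control in the Ion Proton run, where all other miRNA reads together were at 0.732. In SOLiD total RNA these fractions were 0.365 for miR-21a-5p and 0.610 for the rest, and in size-selected RNA 0.340 and 0.562.

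With 1 SOLiD library of each condition there is no replicate check, and a 2-fold difference was taken as the size of note. In SOLiD total RNA the log2 ratio of RPM plus 1, withdrawal over control, was -1.45 for the 5p arm and -1.32 for the 3p arm. The counting intervals of the plain ratio were -1.46 to -1.45 and -2.26 to -0.94. Of 978 features that reached 10 RPM in both libraries, 11.6% were at least 2-fold lower, and of the 258 mature miRNAs among them 34.1% were at least 2-fold lower. The median of these miRNAs was -0.71, and 34 of the 258 had a lower ratio than miR-21a-5p. In size-selected RNA the 5p arm had a log2 ratio of -1.56, where 11.2% of features and 34.7% of 262 mature miRNAs were at least 2-fold lower. There 26 of the 262 had a lower ratio than the 5p arm. The 3p arm had a log2 ratio of +0.23, with a counting interval of -0.54 to 1.06. Scaled to miRNA reads, the ratio of the 5p arm was -0.46 in total RNA and -0.60 in size-selected RNA, under 2-fold in both.

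The Ion Proton libraries were taken as total RNA, as in the methods, although methods and labels differ on their extract. Over the 3 control and 3 withdrawal libraries of total RNA of both runs, with run as a term, limma gave a log2 fold change of -0.75 ± 0.23 (SE) for the 5p arm (adjusted p = 0.0708) and of -0.64 ± 0.26 for the 3p arm (adjusted p = 0.137). Neither passed, where 17.3% of 1701 features did, and 9.71% of 443 mature miRNAs passed as lower, and both had an unadjusted limma p under 0.05. Within the runs, the values of the 5p arm were -0.40 (Ion Proton) and -1.45 (SOLiD) on the scale of log2 of the level plus 1. Without either of the SOLiD libraries the fit reduces to the Ion Proton run, and there limma gave the 5p arm -0.40 (adjusted p = 0.0421 and 0.0492) and the 3p arm -0.31 (adjusted p = 0.0489 and 0.0427). The change differed between the runs in limma's treatment by run term, by -1.05 ± 0.17 (SE, adjusted p = 0.0150) for the 5p arm and -1.01 ± 0.16 (adjusted p = 0.0137) for the 3p arm, where 26.0% of features passed, but neither arm passed there once any 1 Ion Proton library was left out. Scaled to miRNA reads, the fit without that term gave -0.13 (limma adjusted p = 0.638) and -0.09 (limma adjusted p = 0.837).

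The strand balance of the hairpin was compared next. In the Ion Proton controls there were 110 and 111 reads of the 5p arm for each read of the 3p arm, and after withdrawal 98.0 and 110. The withdrawal values were the lower ones, with the closest pair at 109.823 against 109.828. In limma the log2 of this ratio differed by -0.09 ± 0.07 (SE, adjusted p = 0.777), with a 95% interval of -0.27 to 0.08, which spans ratios from 0.831 to 1.06 times control. Of the 89 hairpins tested 1.12% passed, namely miR-148a alone, named here after its value was seen and not called without control replicate 2 or without either withdrawal replicate. Over both runs the difference was -0.02 ± 0.11 (limma adjusted p = 0.982, interval -0.28 to 0.25), with 0.00% of 81 hairpins called and 4 at an unadjusted limma p under 0.05.

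Among the 89 hairpins miR-21a ranked 13th in its 5p over 3p ratio in the Ion Proton controls, with 51 hairpins favouring 5p and 38 favouring 3p. Its neighbours were miR-669a and miR-340 above, at ratios of 118 and 111, and miR-181c and miR-664 below, at 86.3 and 77.5. The ratio of miR-340 lay within the range of the miR-21a controls.

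The arm ratio differed far more between the runs than between the conditions. The SOLiD run gave 41498 for the total RNA control (exact 95% interval 31476 to 55910) and 45710 after withdrawal (32867 to 65626). In size-selected RNA it was 40144 (29480 to 56192) in the control and 11243 (7425 to 17940) after withdrawal. The total RNA libraries overlapped within counting error, and the size-selected withdrawal library had the lowest ratio of the 4, without overlap of its interval with the others. Against the Ion Proton controls, the log2 arm ratio was 8.54 higher in the SOLiD total RNA control, a factor of 371. Of the 81 hairpins with both arms counted in both runs, miR-21a had the highest ratio in the SOLiD control and the 12th highest in the Ion Proton controls. Such shifts were common, with a median absolute difference between the runs of 3.62 on the log2 scale and 10 hairpins shifted further than miR-21a in either direction.

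**Figure D4:**
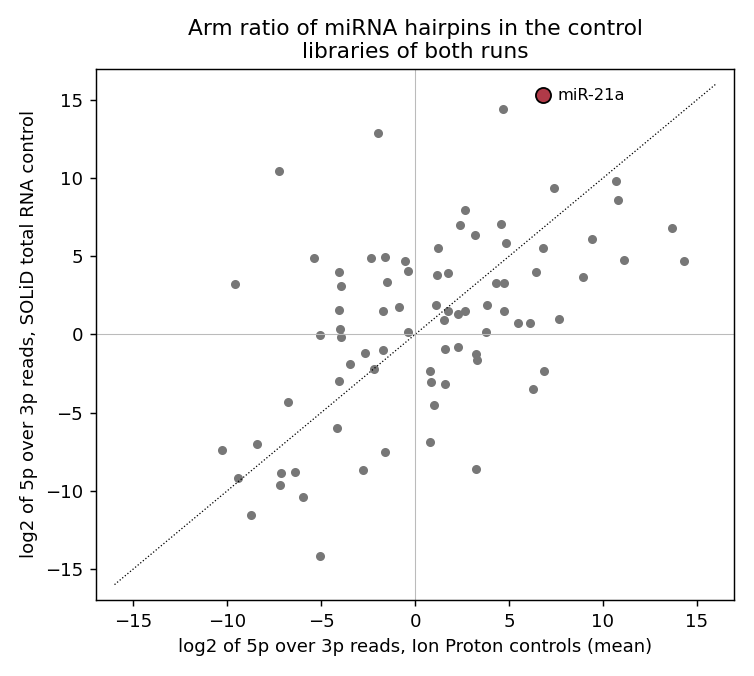
Log2 of 5p over 3p reads of 81 hairpins, Ion Proton controls (mean of 2) against the SOLiD total RNA control; the dotted line marks equal ratios. miR-21a (red) has the highest SOLiD value, 15.3, at an Ion Proton value of 6.79.

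Each arm had its part in that gap. The 5p arm was 5.93-fold higher in the SOLiD total RNA control than in the mean of the Ion Proton controls, where 43 of 142 mature miRNAs with at least 10 CPM and 10 RPM in the runs were shifted further upwards. The 3p arm was 63.2-fold lower, and at under 10 RPM it is not among the 142. Other leading miRNAs differed in either direction, with miR-22-3p 10.6-fold higher in SOLiD, let-7a-5p 10.9-fold lower and let-7c-5p 14.4-fold lower. By the methods, the RNA input, the library kit, the sequencer and the mapping all differed between the runs. The RNA extract and the cultures may have differed as well, and all of these cannot be told apart. Within the SOLiD run, the 5p arm in the size-selected control was at 0.501 of the total RNA control, where the median of the 142 miRNAs was 1.34. The 3p arm, which is not among them, was at 0.518, a value that rests on 40 and 50 reads.

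The hairpin feature of Mir21a (ENSMUST00000083521), which overlaps both arms, was at 83.6 and 73.8 CPM in the Ion Proton controls and 61.3 and 63.1 CPM after withdrawal. These groups did not overlap, as for 28.0% of all features tested with withdrawal below control, and the log2 fold change was -0.29 ± 0.11 (SE, edgeR adjusted p = 0.140). It was at 139 and 121 RPM in SOLiD total RNA, and at 71.6 and 33.7 RPM in size-selected RNA, for control and withdrawal. It equalled 0.0387% to 0.144% of the 5p reads over the 8 libraries. How reads were divided between the hairpin and its arms is not given in the sources used here.

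The near-identical miR-21c and miR-21b were rare beside miR-21a-5p, and their values are uncertain where reads could map to either copy. miR-21c was counted at 5.54 and 4.73 CPM in the Ion Proton controls and 2.45 and 3.30 CPM after withdrawal, with a log2 fold change of -0.78 ± 0.29 (SE, edgeR adjusted p = 0.139). In the SOLiD libraries it was at 272 and 150 RPM in total RNA and 305 and 91.1 RPM in size-selected RNA. For each read of miR-21a-5p it was rarer in the Ion Proton run, at 0.00575% to 0.00953%, than in the SOLiD libraries, at 0.0757% to 0.169%. miR-21b was at 3.35 and 4.87 CPM in the Ion Proton controls and 4.14 and 2.48 CPM after withdrawal, with overlapping groups, and at 35.1 to 122 RPM in the SOLiD libraries.

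The miRNAs whose pattern over the 8 libraries was most like that of miR-21a-5p were miR-101b-3p, miR-340-5p and miR-140-5p. Likeness was the root mean square difference in log2 level after centring each miRNA on its mean, and was 0.26, 0.28 and 0.31 against a median of 1.39 over 141 miRNAs. They are shown, as listed in the Ion Proton table with the seed in capitals, because they share no seed with either arm or with each other.

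mmu-miR-101b-3p: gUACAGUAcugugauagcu

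mmu-miR-340-5p: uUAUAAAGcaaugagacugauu

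mmu-miR-140-5p: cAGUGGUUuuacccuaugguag

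The closest, miR-101b-3p, was at 254 and 263 CPM in the Ion Proton controls and 212 and 209 CPM after withdrawal, and went from 2049 to 750 RPM in SOLiD total RNA and from 1308 to 355 RPM in size-selected RNA. Like miR-21a-5p, these 3 were higher in SOLiD total RNA than in the Ion Proton run and lower after withdrawal in each kind of library. Of the 3, miR-340-5p passed the Ion Proton test (log2 fold change -0.40, edgeR adjusted p = 0.0402). For miR-21a-3p the closest were miR-10b-5p, miR-98-5p and miR-148a-3p, at 0.47, 1.17 and 1.22 against a median of 3.45. miR-10b-5p was at 876 to 1238 CPM in the Ion Proton run and at 16.8 to 25.5 RPM in the SOLiD libraries. These values describe 8 libraries from 2 runs and hold the difference between the runs.

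Other miRNAs tied to inflammation or AP-1, like miR-21, were lower or not called in the Ion Proton run. Of 9 such miRNAs, 4 fell, 0 rose and 5 did not pass (edgeR, where 24.6% of all features passed), with a median log2 fold change of -0.30 against -0.39 over 600 mature miRNAs and 0.08 over all features. miR-146b-5p fell from 16019 and 17972 CPM to 8164 and 8318 CPM (log2 fold change -0.99 ± 0.08, edgeR adjusted p = 0.00293). miR-221-3p and miR-222-3p, which come from one cluster and repress the cell cycle inhibitor p27, fell by 0.50 ± 0.05 and 0.74 ± 0.06 on the log2 scale (edgeR adjusted p = 0.00500 and 0.00273). miR-132-3p, induced by CREB, fell by 0.63 ± 0.13 (edgeR adjusted p = 0.0286). In the SOLiD pairs it was higher after withdrawal, at 32.0 and 42.3 RPM in total RNA and 65.8 and 101 RPM in size-selected RNA, and over both runs its log2 fold change was -0.30 (limma adjusted p = 0.491). In that fit 2 of the 9 passed, both lower, miR-146b-5p and miR-222-3p, where 17.3% of all features passed. It was scaled to counted totals, at which 60.2% of its calls in a simulation were unchanged features. Scaled to miRNA reads, the fit of both runs called only 2 features of any kind lower. miR-146a-5p had a log2 fold change of -0.21 (edgeR adjusted p = 0.180) and miR-155-5p, induced in activated macrophages, one of +0.22 (edgeR adjusted p = 0.221). Scaled to miRNA features only, 2 of the 9 fell (miR-146b-5p and miR-222-3p), 1 rose (miR-155-5p), and the list's median was +0.01. Under that scaling 493 of 2029 features passed, 413 higher and 80 lower, and the median of all features was 0.39.

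Of 10 miRNAs known from cell death or survival, 5 fell, 0 rose and 5 did not pass in the same test, where 24.6% of all features passed and 13.3% of mature miRNAs passed as lower. Their median of -0.32 lay above the -0.39 of mature miRNAs. In both lists, every miRNA that fell in this test averaged at least 10 CPM over the Ion Proton libraries. Only 186 of the 600 mature miRNAs tested did so, and 13.3% is thus not a share among miRNAs of like level. Over both runs 3 of the 10 passed, all lower, miR-15a-5p, miR-16-5p and miR-92a-3p, while let-7a-5p and miR-24-3p did not (limma adjusted p = 0.0693 and 0.0749). There 17.3% of all features passed, and the same limits of scaling hold as for the first list. miR-16-5p and miR-15a-5p, which repress the survival gene Bcl2, fell by 0.60 ± 0.06 and 0.71 ± 0.12 (edgeR adjusted p = 0.00554 and 0.0164). miR-92a-3p of the miR-17~92 cluster fell by 0.58 ± 0.05 (edgeR adjusted p = 0.00384). let-7a-5p, a repressor of Ras, and miR-24-3p fell by 0.27 ± 0.05 and 0.30 ± 0.07 (edgeR adjusted p = 0.0214 and 0.0362). miR-34a-5p, a target of p53, had a log2 fold change of -0.05 (edgeR adjusted p = 0.780). Scaled to miRNA features only, 2 of the 10 fell, miR-16-5p and miR-92a-3p, and the list's median was -0.01. Of all 2029 features, 413 passed as higher and 80 as lower under that scaling. miR-146b-5p, miR-222-3p, miR-16-5p and miR-92a-3p thus passed under both scalings, as miR-21a-5p and miR-21a-3p did under neither.

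The 5 other miRNAs with the highest mean level were miR-22-3p, miR-221-3p, let-7f-5p, let-7a-5p and let-7c-5p. In the Ion Proton run miR-221-3p, let-7a-5p and let-7c-5p fell (edgeR adjusted p = 0.00500, 0.0214 and 0.00471), where 24.6% of all features passed. There miR-22-3p and let-7f-5p had log2 fold changes of -0.21 and -0.10 (edgeR adjusted p = 0.0816 and 0.254). Scaled to miRNA features only, miR-221-3p and let-7a-5p no longer passed. In SOLiD total RNA the log2 ratios of miR-22-3p and miR-221-3p were -0.11 and -2.49, on either side of the -1.45 of miR-21a-5p. In size-selected RNA they were -1.23 and -0.39, both above the -1.56 of miR-21a-5p. miR-22-3p took 13.6% of miRNA reads in the SOLiD total RNA control and 25.1% after withdrawal, as the share of miR-21a-5p went from 43.8% to 31.8%. In size-selected RNA the share of miR-22-3p went from 7.86% to 6.48% and that of miR-221-3p from 12.0% to 17.7%.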

How the data were processed

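Small RNA libraries of 8 samples were analysed. Per the labels and methods, the authors trimmed Ion Proton reads with cutadapt 1.2.1, mapped them to mm10 with bowtie2 2.2.4 (up to 10 places per read) and deposited unnormalised read counts per feature. For the SOLiD run they mapped with LifeScope and deposited RPM, reads per 1000000 reads on listed features. All RPM values were whole multiples of 1 read, within 0.01 of a read, so reads were recovered. Methods and labels differ on extraction and on the RNA extract (total or small) of the Ion Proton run. The Ion Proton test used edgeR 4.0.16 (R 4.3.3) with TMM factors on features with 5 or more reads in all. The test of both runs used limma 3.58.1 on log2 of the level plus 1, with run as a term, on features that had such a count in the one run and in the other. Arm ratios used limma on log2 of 5p over 3p reads, 0.5 added to each, for hairpins with 20 reads in each arm (and 5 in SOLiD total RNA). The threshold was an adjusted p of 0.05. SE in edgeR is the log2 fold change over the root of F. The methods call the Ion Proton replicates biological, without saying what they were. Control and withdrawal replicates differed by more than counting noise (mean chi-square of 23.0 and 22.4 per feature). Single libraries have exact (Clopper-Pearson) 95% intervals. Simulations put changes of 2-fold or more into 200 features, each with at least 200 reads, and gave every feature the same spread between libraries. Smaller changes, such as those of the miR-21a arms in the Ion Proton run, were not simulated. In these simulations edgeR found 100%, and 3.38% of what it called had not been changed (2031 features). The limma fit recovered 100%, with 5.66% unchanged among calls at known depth but 60.2% when scaled to counted totals (1663 features), since abundant changed features move the totals. DESeq2 1.42.0 was an alternative, and ranks and intervals were computed in Python 3.11.15 with scipy 1.17.1, numpy 2.4.6 and pandas 2.3.3, with figures by matplotlib 3.10.9. The arms, marker sets and lists were chosen with earlier results of these data known. Named were the arms, their hairpin and seed relatives, the 5 most abundant other miRNAs, the 3 most alike for each arm, neighbours by arm ratio, and members of both lists past the threshold, with miR-21b, miR-146a-5p, miR-155-5p, miR-34a-5p and miR-148a added after their values were seen.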

Additional observations from a re-analysis of the deposited data

Results flagged for a closer look

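The change of miR-21a after M-CSF withdrawal differed between the runs in a limma fit with a treatment by run term, which was added after the data had been seen. The change in SOLiD total RNA minus that in the Ion Proton run was -1.05 ± 0.17 (SE, log2 scale, limma adjusted p = 0.0150) for miR-21a-5p and -1.01 ± 0.16 (limma adjusted p = 0.0137) for miR-21a-3p, where 26.0% of 1701 features passed. The SOLiD run has 1 library of each condition, so its libraries are taken to vary like those of the Ion Proton run, and the 3p arm had 50 and 35 reads there. Scaled to miRNA reads the differences were -0.50 (limma adjusted p = 0.0555) and -0.67 (limma adjusted p = 0.0355). With any of the 4 Ion Proton libraries left out neither arm passed, with limma adjusted p-values of 0.0708 to 0.0971 for the 5p and 0.0560 to 0.111 for the 3p arm.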

How the results depend on the processing

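In the Ion Proton run the 5p arm passed under DESeq2 (-0.47), with counted totals (-0.40) and with no minimum count (-0.35), and ranged from -0.51 to -0.22 with 1 library left out. The 3p arm passed under DESeq2 (-0.38), turned to 0.059 with TMM over miRNA features, and ranged from -0.41 to -0.20. The 500 features called became 299 to 528 with 1 library left out, with 299 and 312 without withdrawal replicates 1 and 2. Of the calls 63.6% were higher, against 49.4% under DESeq2 and 83.8% with TMM over miRNA features. Over both runs the 5p arm ranged from -0.91 to -0.40 and the 3p arm from -0.77 to -0.31 with 1 library left out, and the 295 features called became 15 to 81 without an Ion Proton library and 560 and 564 without a SOLiD library. There 67.1% of calls were higher, against 99.3% scaled to miRNA reads and 43.6% centred on the median. The arm ratio over both runs ranged from -0.093 to 0.051, with 0.010 and 0.051 without control replicate 2 and withdrawal replicate 1. Hairpins called went from 1 to 2 with 5 reads added to each arm, and were 0 to 3 with 1 library left out (limma, 5 to 10 at an unadjusted p under 0.05). The share of the 5p arm differed by +0.459 percentage points of miRNA reads but -1.46 of all listed reads, and by -0.562 to 1.48 with 1 library left out. The SOLiD 5p ratio was -0.46 and -0.60 scaled to miRNA reads and -1.88 and -2.46 centred on the median, and that of the 3p arm -0.54 and +1.09 scaled to miRNA reads and -0.67 centred in size-selected RNA. The difference between the runs was -0.50 for the 5p arm scaled to miRNA reads, and -1.16 to -0.95 (5p) and -1.06 to -0.96 (3p) with 1 library left out, with 175 and 211 features called in place of 443 without a control and 0 without either withdrawal library (limma, 512 and 542 at an unadjusted p under 0.05). The cause of these shifts was not tested.

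Replicate numbers are shared between the groups, and the deviations of same-numbered libraries were not correlated (r = 0.0056 over 852 features). With 2 libraries in each group, this cannot show whether same-numbered libraries were prepared together. With the replicate block the Ion Proton values were -0.35 (5p, edgeR adjusted p = 0.0795) and -0.25 (3p, edgeR adjusted p = 0.117) with 361 features and 3 hairpins called, and over both runs 29 features were called, with neither arm among them. Depth limits the 3p arm in SOLiD, where 22 to 50 reads stand behind a value.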
